A study of Mus musculus with 12 samples.

Results

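Genes of the transforming growth factor-beta (TGF-beta), bone morphogenetic protein (BMP) and activin family were followed in mouse hematopoietic stem cells (HSCs), the marrow cells that renew themselves and feed every blood lineage. The 10 genes were taken by name, out of 14143 genes in the deposited table: the ligand genes Tgfb1, Tgfb3 and Inhba, the receptor genes Bmpr1a, Tgfbr1, Tgfbr2, Bmpr2 and Tgfbr3, and the transducer genes Smad3 and Smad7. All 10 had values in the table. RNA was sequenced from old My-HSCs, young My-HSCs, old Ly-HSCs and young Ly-HSCs, with 3 libraries in each group. My-HSCs (myeloid-biased) and Ly-HSCs (lymphoid-biased) were both sorted as lineage-negative, Sca-1+, c-kit+, CD48- and CD135- cells, high in CD150 for My-HSCs and low for Ly-HSCs. All mice were females of one strain, labelled C57BL6J, with no allele or agent given in the labels. Old mice were 18 months old and came from an ageing colony, while young mice came from other suppliers at an age of 8 to 10 weeks per the labels, or up to 12 weeks per the protocol. Age and source of the mice therefore cannot be told apart. Each library came from 1 of 3 independent groups of mice per age, so the spread between libraries is that between groups of mice.

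Ligands of this family are dimers that bring together a type II and a type I receptor, both of them kinases. The type II receptor activates the type I receptor, which phosphorylates Smad proteins that move to the nucleus. TGF-beta and activin receptors act mainly through Smad2 and Smad3, and BMP receptors through Smad1, Smad5 and Smad9. In bone marrow TGF-beta is known to hold HSCs in quiescence, and TGF-beta1 was reported to act differently on myeloid-biased and lymphoid-biased HSCs of mice.

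The 2 members with the widest swing in RNA level on the log2(FPKM + 1) scale among those whose promoter is held by the RefSeq table differ in the sequence upstream of their start. The 250 bases before the RefSeq start are printed for both (build GRCm38.p6, 5′ to 3′ on the gene's strand, motif matches in capitals). The Bmpr1a window, minus strand, is chr14:34502547-34502796, and the Inhba window, plus strand, is chr13:16011601-16011850. In the GENCODE annotation Bmpr1a reaches to 34503341, so its window lies within that gene. The Inhba window ends directly before the GENCODE start at 16011851.
Bmpr1a: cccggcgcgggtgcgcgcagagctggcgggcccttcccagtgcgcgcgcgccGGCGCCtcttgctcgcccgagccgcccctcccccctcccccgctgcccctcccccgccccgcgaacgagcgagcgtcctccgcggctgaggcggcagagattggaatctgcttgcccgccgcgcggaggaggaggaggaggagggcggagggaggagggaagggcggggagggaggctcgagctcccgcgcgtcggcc
Inhba: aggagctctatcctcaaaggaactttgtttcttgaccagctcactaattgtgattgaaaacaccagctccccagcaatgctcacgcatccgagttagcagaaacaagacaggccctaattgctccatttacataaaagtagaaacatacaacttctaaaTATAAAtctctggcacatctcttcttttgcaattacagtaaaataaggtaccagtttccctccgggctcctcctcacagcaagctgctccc
The Bmpr1a window holds 78.8% G and C and 36 CG pairs, and the Inhba window holds 43.2% and 3, where the median of 27025 promoters was 52.0% and 6. Of the motifs searched on both strands, GGCGCC, a GC-rich Smad element, occurs once in the Bmpr1a window and in 9.54% of all promoters. TATAAA, the TATA box, occurs once upstream of Inhba and in 13.0% of all promoters. GGCGCC also occurs once upstream of Bmpr2 and of 1 of the 2 Tgfbr1 starts in the table. The box of Smad3 and Smad4, CAGACA, has no match in either printed window and occurs in 17.1% of all promoters. The same holds for the ETS core CCGGAA, in 12.2% of promoters. Neither the Runx core TGTGGT, in 14.2%, nor the core of GATA factors, GATAA, in 23.0%, has a match. Each window holds a single match, so no motifs overlap. No binding was measured here, and a match is only a match of letters.

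Values are FPKM, fragments counted relative to transcript length and library size, so levels of different genes can be set side by side. How many reads each library had is unknown. The share of the table's genes listed at exactly 0 was 12.1% to 18.2% in old My-HSC, 19.3% to 26.1% in young My-HSC, 13.3% to 22.3% in old Ly-HSC and 25.0% to 34.1% in young Ly-HSC libraries, so the old libraries listed fewer zeros in each subset. Young Ly-HSC library 1 had the most zeros, and the young Ly-HSC libraries correlated least with one another, at 0.706 to 0.789 across genes. Slamf1, which encodes CD150, stood at 15.0 to 35.3 FPKM in the 6 My-HSC libraries and at 1.39 to 8.33 FPKM in the 6 Ly-HSC libraries, in the order of the sort. Flt3, which encodes CD135, stood at 2.58 to 22.0 FPKM in Ly-HSC and 0.571 to 4.01 FPKM in My-HSC libraries, both sorted as CD135-. Cd48, also sorted against, reached 10.9 FPKM in old Ly-HSC library 2. Ly6a, which encodes Sca-1, stood at 1.24 to 3.83 FPKM in young and 11.7 to 52.2 FPKM in old Ly-HSCs. In My-HSCs Ly6a stood at 5.06 to 16.9 FPKM in young and 28.7 to 38.6 FPKM in old libraries. Granulocyte, monocyte and erythroid marker lists stood highest in library 1 of both old groups. Itgam, an integrin of myeloid cells, was at 125 FPKM in old My-HSC library 1 and 160 FPKM in old Ly-HSC library 1, and at most 32.9 FPKM in any other library. The 3 of 12 granulocyte markers with values summed to 108 to 300 FPKM in old My-HSCs and 14.2 to 42.4 FPKM in young My-HSCs, and to 77.8 to 297 FPKM in old Ly-HSCs and 1.79 to 56.9 FPKM in young Ly-HSCs. The 8 of 9 monocyte and macrophage markers with values summed to 40.8 to 184 FPKM in old My-HSCs, 21.7 to 62.1 FPKM in young My-HSCs, 47.3 to 255 FPKM in old Ly-HSCs and 24.3 to 54.8 FPKM in young Ly-HSCs. Itgam is counted in both this list and the granulocyte list, so their sums are not separate. The 7 of 8 T and NK cell markers with values summed to 20.3 to 27.0 FPKM in old My-HSCs, against 6.80 to 19.5 FPKM in young My-HSCs. In old Ly-HSCs they summed to 6.83 to 10.4 FPKM, against 4.08 to 32.5 FPKM in young Ly-HSCs. That list was thus highest in old My-HSCs apart from young Ly-HSC library 1, where Lck alone was at 32.5 FPKM. The natural killer receptor gene Klrb1c stood at 6.16, 20.1 and 13.4 FPKM in old My-HSCs and 9.84, 0.0302 and 3.85 FPKM in young My-HSCs. Ncr1, another natural killer gene of the list, was at 0 in all 3 old My-HSC libraries and at up to 2.21 FPKM in old Ly-HSCs. Cd3e, a T cell gene, was at most at 0.73 FPKM in any library. The part of these marker levels in the differences of age and subset was not tested. The 10 stromal and endothelial markers overlapped between the ages in both subsets, at 21.7 to 33.7, 23.1 to 47.8, 25.2 to 35.2 and 25.9 to 31.7 FPKM in the same order of groups, with Cxcl12, Col1a1, Cdh5 and Lepr at most at 2.71 FPKM and Kdr, Pdgfrb, Emcn and Pecam1, of which HSCs also express some, up to 9.91, 8.85, 13.6 and 23.9 FPKM. In sorted bulk cells, fewer cells of a type and less RNA per cell cannot be told apart.

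The receptor gene Bmpr1a, which encodes a type I receptor for BMPs, was near absent in young HSCs and present in old HSCs of both subsets. The old My-HSC libraries 1, 2 and 3 held 7.71, 9.17 and 9.53 FPKM, where the young My-HSC libraries held 0, 0.513 and 0.571 FPKM. The old Ly-HSC libraries held 11.1, 6.44 and 6.52 FPKM, where the young Ly-HSC libraries held 0.0251, 0.367 and 0 FPKM. Every old library lay above every young one, with a gap between 0.571 and 6.44 FPKM, and the ranges of the subsets overlapped at each age. On GRCm38 the gene lies on chromosome 14 from 34410734 to 34503341.

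Differences were tested with limma on log2(FPKM + 1), with Benjamini-Hochberg adjustment over 10900 genes that reached 1 FPKM in at least 3 libraries; an adjusted p under 0.05 was called, and an error after ± on a log2 fold change is limma's standard error. All 10 genes passed that filter, Bmpr1a through its 6 old libraries alone, so a difference in Bmpr1a is partly built into its passing. Inhba reached 1 FPKM in every My-HSC library and in too few Ly-HSC libraries to pass through those. A difference of Inhba between the subsets is thus partly built in as well. The log2 fold change of Bmpr1a, old over young, was 2.87 ± 0.44 in My-HSCs (adjusted p = 0.0196) and 2.97 ± 0.44 in Ly-HSCs (adjusted p = 0.0153). Over both subsets it was 2.92 ± 0.31, a 7.58-fold increase of FPKM + 1 (adjusted p = 0.000519). That fit takes the 12 libraries as independent, although same-numbered old libraries deviated together. With same-numbered libraries of an age averaged, 3 means per age, the adjusted p was 0.0305. The age effects of the subsets differed by -0.10 on the log2 scale, My-HSCs minus Ly-HSCs, with a 95% interval from -1.44 to 1.24 (adjusted p = 0.991). A difference of more than 2-fold between the subsets thus lies within that interval. The difference between subsets over both ages was 0.20 ± 0.31 (adjusted p = 0.865), and -0.181 with quantile normalization.

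Bmpr1a calls within a single subset rested on few libraries. Leaving out any 1 library left the log2 fold change between 2.66 and 2.99 in My-HSCs and between 2.74 and 3.12 in Ly-HSCs. The call was lost without any 1 of the 6 My-HSC libraries in the My-HSC comparison (adjusted p up to 0.131) and without any 1 of the 3 old Ly-HSC libraries in the Ly-HSC comparison (adjusted p up to 0.0731). The call over both subsets held without each of the 12 libraries (adjusted p from 0.000649 to 0.00449), and without all 4 libraries numbered 1, which include both libraries with high Itgam (2.71, adjusted p = 0.0124). With the share of genes at 0 as a covariate, the log2 fold change over both subsets was 2.82 and its call was lost (adjusted p = 0.093).

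**Figure D1:**
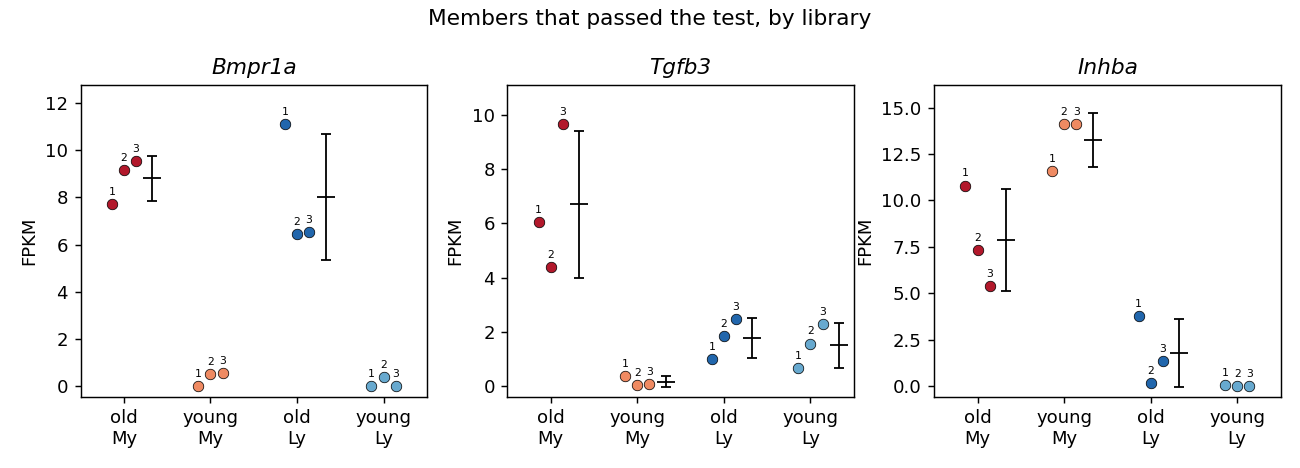
FPKM (linear axis) of Bmpr1a, Tgfb3 and Inhba in old My-HSCs, young My-HSCs, old Ly-HSCs and young Ly-HSCs; points are libraries 1 to 3, and bars give the mean and SD (n = 3) where no library is listed at 0. Bmpr1a is at 6.44 FPKM or more in all old libraries and at most 0.571 in the young, Tgfb3 is highest in old My-HSCs, and Inhba is highest in young My-HSCs and nearly absent in young Ly-HSCs.

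Within the type I receptors, the share of RNA from Bmpr1a differed by age. The table holds 6 genes of that class, Bmpr1a, Tgfbr1, Acvr1, Acvr1b, Acvr1c and Acvrl1. Bmpr1a made up 24.6%, 24.5% and 27.3% of their summed FPKM across old My-HSC libraries 1, 2 and 3 but 0%, 2.34% and 2.01% across the young My-HSC libraries. It made up 31.2%, 14.8% and 15.6% in old Ly-HSCs, against 0.045%, 1.08% and 0% in the young. Of the other BMP-binding type I receptors, Acvr1 ranged from 0 to 8.65 FPKM over the 12 libraries and Acvrl1, an endothelial BMP receptor, from 0 to 4.12 FPKM. Acvrl1 was highest in library 1 of both old groups, at 4.12 FPKM in old My-HSCs and 3.52 FPKM in old Ly-HSCs, the libraries that stood highest in Itgam. The activin type I receptor Acvr1b was the most abundant of the class in every young Ly-HSC library, at 51.0, 18.6 and 33.4 FPKM. In each of the other groups Acvr1b led in some libraries and Tgfbr1 in others.

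**Figure D2:**
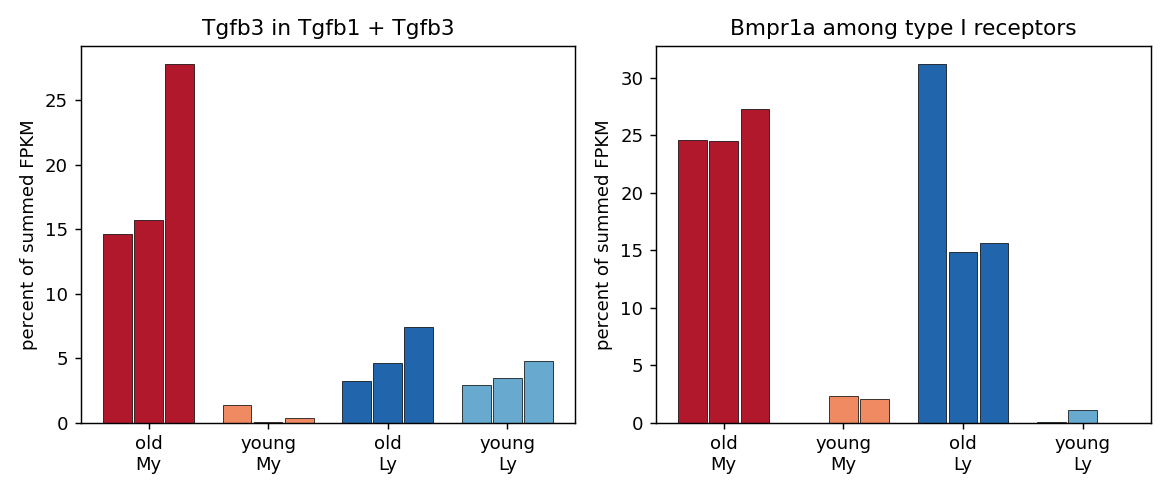
Left, the percent of the summed FPKM of Tgfb1 and Tgfb3 that came from Tgfb3; right, the percent of the summed FPKM of 6 type I receptor genes that came from Bmpr1a; 1 bar per library (1 to 3, left to right) in old My-HSCs, young My-HSCs, old Ly-HSCs and young Ly-HSCs. Tgfb3 reaches 14.6% to 27.8% in old My-HSCs and at most 7.37% elsewhere, and Bmpr1a reaches 14.8% to 31.2% in old libraries and at most 2.34% in young ones.

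Tgfb3, the gene of the ligand TGF-beta3, was higher in old My-HSCs than in the 3 other groups. Old My-HSC libraries 1, 2 and 3 held 6.05, 4.38 and 9.65 FPKM, where the young My-HSC libraries held 0.389, 0.0234 and 0.0897 FPKM. In old Ly-HSCs it stood at 1.01, 1.83 and 2.48 FPKM, against 0.653, 1.57 and 2.29 FPKM in the young. The ages overlapped in Ly-HSCs and not in My-HSCs. In order of level, old My-HSCs came first, then old and young Ly-HSCs, which overlapped, then young My-HSCs, whose highest library lay below the lowest young Ly-HSC library. The gene lies on chromosome 12 from 86056745 to 86079041.

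The log2 fold change of Tgfb3, old over young, was 2.68 ± 0.47 in My-HSCs, 6.39-fold on the FPKM + 1 scale (adjusted p = 0.0359), and 0.17 ± 0.47 in Ly-HSCs (95% interval from -0.85 to 1.18, adjusted p = 0.906), where quantile normalization turned the sign to -0.777. The difference of these age effects was 2.51 ± 0.67 (95% interval from 1.07 to 3.95, unadjusted p = 0.00231), and it did not pass adjustment over all genes (adjusted p = 0.682). In that interaction limma called 0 of 10900 genes, with 616 at an unadjusted p under 0.05. Between the subsets, My-HSCs over Ly-HSCs, the log2 fold change was 1.45 ± 0.47 in old mice (adjusted p = 0.744) and -1.06 ± 0.47 in young mice (adjusted p = 0.344). At both ages the ranges of the subsets did not overlap, and they lay in opposite order. The My-HSC call of Tgfb3 ended in 16 of 24 alternative settings: it was lost without any 1 of the 6 My-HSC libraries and without old Ly-HSC library 2 or 3, with an adjusted p up to 0.228 and a log2 fold change from 2.41 to 2.91. With the share of genes at 0 as a covariate the log2 fold change was 2.37 (adjusted p = 0.227).

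Tgfb1, which encodes TGF-beta1 and was the most abundant ligand gene of the 3, did not follow Tgfb3. It stood at 35.5, 23.5 and 25.1 FPKM in old My-HSCs and 27.7, 32.1 and 24.6 FPKM in young My-HSCs. In old Ly-HSCs it stood at 30.3, 37.6 and 31.1 FPKM, and in young Ly-HSCs at 21.8, 43.5 and 45.4 FPKM. All 4 groups overlapped. Old over young over both subsets, the log2 fold change was -0.0568 ± 0.20 (95% interval from -0.50 to 0.38, adjusted p = 0.933), and its sign turned without young Ly-HSC library 2 or 3 (at most 0.0336). My-HSCs over Ly-HSCs at both ages gave -0.28 ± 0.20 (adjusted p = 0.667). Tgfb3 made up 14.6%, 15.7% and 27.8% of the summed FPKM of both genes across old My-HSC libraries 1, 2 and 3 but 1.39%, 0.0726% and 0.363% across the young My-HSC libraries. In old Ly-HSCs the share was 3.24%, 4.64% and 7.37%, against 2.91%, 3.49% and 4.81% in the young. The bar plot of these shares puts every old My-HSC library above every library of the other groups.

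Inhba encodes the inhibin beta A subunit, which pairs with itself to form activin A, a ligand that signals through Smad2 and Smad3. It was higher in My-HSCs than in Ly-HSCs at both ages. In My-HSCs it stood at 10.8, 7.35 and 5.38 FPKM in old libraries 1, 2 and 3, compared with 11.6, 14.1 and 14.1 FPKM in young ones. In Ly-HSCs it stood at 3.77, 0.19 and 1.34 FPKM in old libraries, compared with 0.0808, 0 and 0 FPKM in young ones. The order was young My-HSCs, old My-HSCs, old Ly-HSCs, young Ly-HSCs, and no neighbouring groups overlapped. The gene lies on chromosome 13 from 16011851 to 16031621.

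Between the subsets, My-HSCs over Ly-HSCs, the log2 fold change of Inhba was 1.86 ± 0.53 in old mice (unadjusted p = 0.00382, adjusted p = 0.534) and 3.79 ± 0.53 in young mice (adjusted p = 0.0236). Over both ages it was 2.82 ± 0.37, 7.08-fold on the FPKM + 1 scale (adjusted p = 0.00623). Inhba passed the filter only with its My-HSC libraries, so part of this difference is built in. That pooled call held under every one of the 24 alternative settings run, the omission of each library and the share of genes at 0 as a covariate included, with an adjusted p from 0.00472 to 0.0384. The call in young mice alone was lost in 12 of 25 alternative settings. Among them were the omission of any 1 young My-HSC library, of old My-HSC library 2 or 3 or of old Ly-HSC library 3. With a library left out the log2 fold change was 3.75 to 3.88 and the adjusted p at most 0.116. With only the compared groups in limma the adjusted p was 0.437. With same-numbered libraries of an age as pairs, which the data bear out in old mice alone, it was 0.0579.

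With age, Inhba lay lower in old My-HSCs and higher in old Ly-HSCs, and in neither subset did the age groups overlap. In limma its log2 fold change, old over young, was -0.73 ± 0.53 in My-HSCs (adjusted p = 0.902) and 1.21 ± 0.53 in Ly-HSCs (unadjusted p = 0.0401, adjusted p = 0.347). The difference of the age effects was -1.94 ± 0.75 (unadjusted p = 0.0225, adjusted p = 0.864), so the opposite order was seen in every library and did not pass the test. Old Ly-HSC library 1, the highest of its group in Inhba, was also the highest in Itgam, and the part of this in the result was not tested. Without that library the log2 fold change in Ly-HSCs was 0.70, and without old Ly-HSC library 2, the lowest of its group, it was 1.70.

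**Figure D3:**
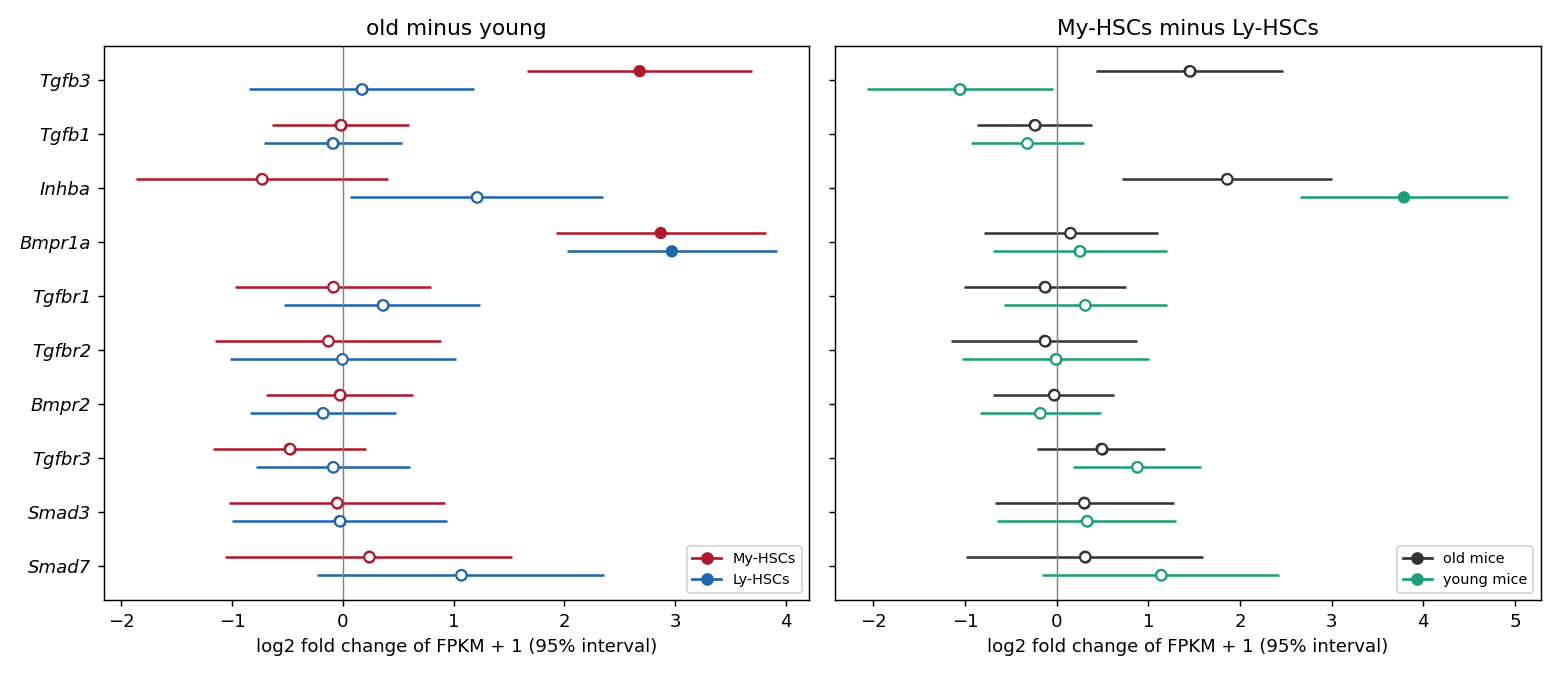
Log2 fold change of FPKM + 1 with its 95% interval from limma for the 10 genes, ligands first, then receptors and Smads; left, old minus young in My-HSCs and in Ly-HSCs; right, My-HSCs minus Ly-HSCs in old and in young mice. Filled points passed an adjusted p of 0.05: Bmpr1a in both subsets and Tgfb3 in My-HSCs on the left, and Inhba in young mice on the right.

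The 10 genes were chosen with earlier results of these data known. Bmpr1a passed the filter through its old libraries alone, and Inhba only with its My-HSC libraries. A larger share of calls among them than among all genes is therefore no support for the set. In counts, 2 of the 10 genes rose with age in My-HSCs and none fell, where 0.211% of all tested genes passed, 0.193% higher and 0.0183% lower. In Ly-HSCs 1 of 10 rose and none fell, where 0.349% of all genes passed, 0.339% higher and 0.00917% lower. Over both subsets 1 of 10 rose and none fell, against 0.844% of all genes, 0.752% higher and 0.0917% lower. Between My-HSCs and Ly-HSCs in old mice 0 of 10 passed, against 0.0275% of all genes, 0.0183% higher and 0.00917% lower. Inhba and Tgfb3 were there at an unadjusted p under 0.05 in limma, as were 439 of all 10900 genes. In young mice 1 of 10 was higher in My-HSCs and none lower, against 0.119% of all genes, all of them higher. Over both ages 1 of 10 was higher, against 0.413% of all genes, 0.321% higher and 0.0917% lower. The median log2 fold change of the 10 genes with age was -0.0402 in My-HSCs and 0.0831 in Ly-HSCs, beside 0.0658 and 0.183 over all genes. With quantile normalization the median of all genes was -0.0237 in My-HSCs and -0.00911 in Ly-HSCs, and single genes in Ly-HSCs moved further, to 2.04 for Bmpr1a and 0.203 for Inhba. The age groups did not overlap at 3 of the 10 genes in My-HSCs, with 2 lying higher with age and 1 lower, against 19.1% of all genes, 11.3% higher and 7.80% lower. In Ly-HSCs they did not overlap at 2 of 10, both higher in old cells, against 16.0% of all genes, 11.5% higher and 4.50% lower. The subsets did not overlap at 2 of 10 in old mice, both higher in My-HSCs, against 16.7% of all genes, 9.19% higher and 7.53% lower. In young mice they did not overlap at 3 of 10, 2 higher and 1 lower in My-HSCs, against 13.4% of all genes, 8.97% higher and 4.41% lower.

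The receptors of TGF-beta itself were expressed in every library and passed in no comparison. Tgfbr1, the type I receptor, stood at 6.90, 13.2 and 10.1 FPKM in old My-HSCs and 7.82, 11.0 and 13.0 FPKM in young My-HSCs. In Ly-HSCs it stood at 11.2, 12.1 and 9.18 FPKM in old and 4.71, 12.7 and 8.95 FPKM in young libraries. Tgfbr2, the type II receptor, ranged from 4.80 to 22.1 FPKM, and both ends of that range were young Ly-HSC libraries. The log2 fold change, old over young over both subsets, was 0.14 ± 0.29 for Tgfbr1 (95% interval from -0.49 to 0.76, adjusted p = 0.885) and -0.0662 ± 0.33 for Tgfbr2 (95% interval from -0.79 to 0.65, adjusted p = 0.956). Bmpr2, the type II receptor that pairs with Bmpr1a, stood between 10.7 and 20.0 FPKM in all 12 libraries, at -0.10 ± 0.22 (95% interval from -0.57 to 0.36, adjusted p = 0.880). These signs were not stable: that of Tgfbr1 turned under quantile normalization and without young Ly-HSC library 1, and that of Tgfbr2 without young Ly-HSC library 2 or 3 or young My-HSC library 2. The level of Bmpr2 in old cells, 13.4 ± 2.35 FPKM in My-HSCs and 13.7 ± 2.84 FPKM in Ly-HSCs (SD, n = 3), stood beside 8.80 ± 0.966 and 8.02 ± 2.67 FPKM of Bmpr1a in the same groups, while in young cells Bmpr2 was at 11.9 FPKM or more and Bmpr1a at 0.571 FPKM or less.

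Tgfbr3, or betaglycan, a co-receptor that presents TGF-beta ligands and binds inhibin, was higher in My-HSCs by a margin that did not pass. It stood at 15.5, 33.4 and 29.3 FPKM in old My-HSCs, against 13.2, 25.0 and 15.9 FPKM in old Ly-HSCs. In young mice it stood at 39.7, 29.9 and 36.1 FPKM in My-HSCs, against 18.4, 21.7 and 16.0 FPKM in Ly-HSCs. The subsets overlapped in old mice and not in young mice. My-HSCs over Ly-HSCs, the log2 fold change was 0.49 ± 0.32 in old mice (adjusted p = 1.0), 0.88 ± 0.32 in young mice (unadjusted p = 0.0169, adjusted p = 0.259) and 0.68 ± 0.23 over both ages (adjusted p = 0.240). This last was the smallest adjusted p among 49 comparisons of the 7 genes that passed in none. With age, over both subsets, the log2 fold change was -0.28 ± 0.23 (adjusted p = 0.617).

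**Figure D4:**
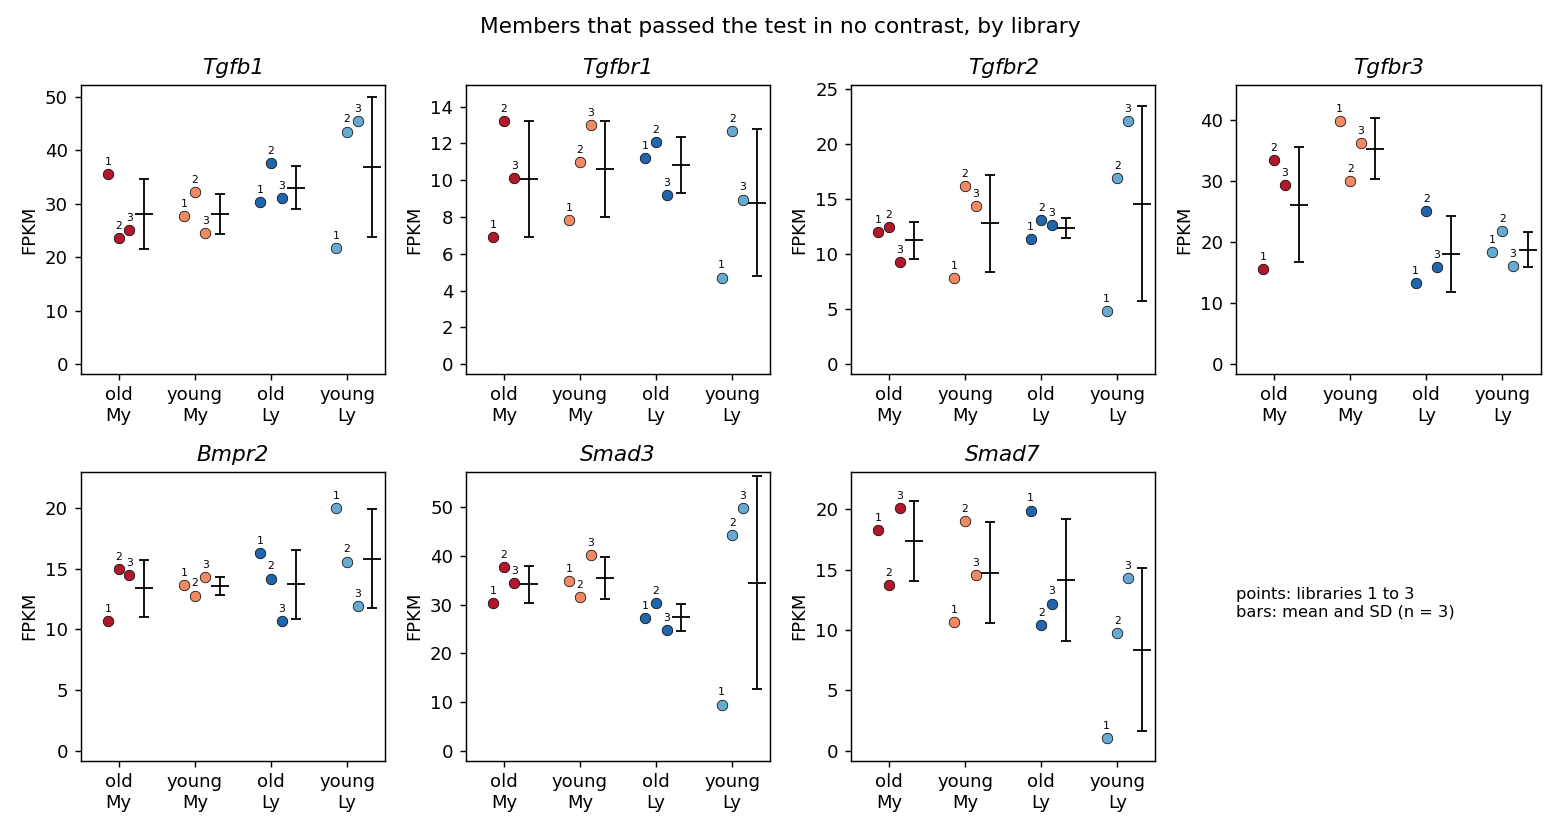
FPKM (linear axes, 1 panel per gene) of the 7 genes that passed in no comparison, in old My-HSCs, young My-HSCs, old Ly-HSCs and young Ly-HSCs; points are libraries 1 to 3, bars the mean and SD (n = 3). The ages within a subset and the subsets within an age overlap except for Tgfbr3 between the subsets in young mice, and young Ly-HSC library 1 is low in Tgfb1, Tgfbr1, Tgfbr2, Smad3 and Smad7.

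Among the transducers, Smad3, the receptor-activated Smad of TGF-beta and activin, stood at 30.3, 37.8 and 34.4 FPKM in old My-HSCs and 34.8, 31.5 and 40.1 FPKM in young My-HSCs. In Ly-HSCs it stood at 27.2, 30.3 and 24.8 FPKM in old and 9.51, 44.3 and 49.8 FPKM in young libraries. Young Ly-HSC library 1 lay far below the others. Over both subsets its log2 fold change with age was -0.0406 ± 0.32 (95% interval from -0.73 to 0.65, adjusted p = 0.973), and without young Ly-HSC library 1 it was -0.406, the lowest value over all omissions. Smad7, the inhibitory Smad that TGF-beta induces as feedback, stood at 18.3, 13.7 and 20.1 FPKM in old My-HSCs, against 10.7, 19.0 and 14.6 FPKM in the young. In old Ly-HSCs it stood at 19.9, 10.4 and 12.2 FPKM, against 1.09, 9.78 and 14.3 FPKM in the young. Its log2 fold change in Ly-HSCs was 1.07 ± 0.60, old over young (adjusted p = 0.456), and 1.14 ± 0.60 in young mice, My-HSCs over Ly-HSCs (adjusted p = 0.423). Young Ly-HSC library 1 set both: without it they were 0.192 and 0.261.

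Over the 12 libraries the genes did not vary as a block. On the log2 scale Tgfbr2 and Smad3 had a Pearson correlation of 0.80, Smad3 and Smad7 of 0.76, and Tgfb1 and Tgfbr2 of 0.73, pairs that share the low values of young Ly-HSC library 1. Bmpr1a and Tgfb3 had 0.66, Bmpr1a being highest in the old libraries of both subsets and Tgfb3 in those of My-HSCs only. The genes most like Bmpr1a in pattern, of all tested genes, were Mab21l2 (0.978), Eya4 (0.975), Abi3bp (0.962), Rorb (0.959) and Pcdhb19 (0.956). Those most like Inhba were Ampd3 (0.917), Pdcd11 (0.903), Fkbp10 (0.899), Vwf (0.876) and Mtss1l (0.871). Vwf, the von Willebrand factor gene, averaged 42.8 FPKM in old My-HSCs against 5.29 FPKM in old Ly-HSCs, and 29.6 FPKM in young My-HSCs against 2.63 FPKM in young Ly-HSCs. Among those most like Tgfb3 were Fam169a (0.919), Pkm (0.871), Dusp28 (0.865) and Cds1 (0.859). Fam169a averaged 7.95 FPKM in old My-HSCs against 0.0929 FPKM in young My-HSCs, while old Ly-HSCs averaged 2.40 FPKM against 0.736 FPKM in young Ly-HSCs. These are Pearson correlations over 12 libraries that share their groups, given as a description.

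The rest of the pathway was followed through 95 other genes in 8 lists by role, of which 76 had values and 49 could be tested. None passed an adjusted p under 0.05 with age within My-HSCs or within Ly-HSCs, where 0.211% and 0.349% of all genes passed. At an unadjusted p under 0.05 in limma stood 5 and 7 of the 49, beside 786 and 1450 of all 10900 genes. The median log2 fold changes of 0.0479 and 0.206 lay close to those of all genes. Over both subsets 1 rose and none fell, beside 0.752% higher and 0.0917% lower over all genes. It was Junb, an immediate early factor among the target genes, at 340, 335 and 315 FPKM in old My-HSCs and 109, 99.3 and 199 FPKM in young My-HSCs. In old Ly-HSCs Junb stood at 267, 210 and 240 FPKM, against 95.6, 193 and 141 FPKM in the young. Its log2 fold change over both subsets was 1.06 ± 0.19 (adjusted p = 0.0179), and the call was lost without any 1 of 7 libraries, with an adjusted p of at most 0.0639, and with the share of genes at 0 as covariate (0.716, adjusted p = 0.417). It was also lost without the 4 libraries numbered 1 (0.823, adjusted p = 0.15), without a filter (adjusted p = 0.0511) and with same-numbered libraries of an age averaged (adjusted p = 0.0677). The 10 tested target genes had a median of 0.956 in My-HSCs and 0.354 in Ly-HSCs, with 7 and 8 of 10 higher in old cells, beside medians of 0.0658 and 0.183 and shares of 55.8% and 62.4% higher over all genes.

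Between the subsets over both ages 1 of the 49 genes passed, as higher in My-HSCs, beside 0.321% higher and 0.0917% lower over all genes. It was Ltbp4, which encodes a latent TGF-beta binding protein that holds the inactive ligand in the matrix. It stood at 8.90, 5.82 and 3.67 FPKM in old My-HSCs, against 1.25, 2.29 and 2.75 FPKM in old Ly-HSCs. In young mice it stood at 6.77, 3.70 and 6.14 FPKM in My-HSCs, against 0.0229, 0.531 and 0 FPKM in Ly-HSCs. The subsets did not overlap at either age. The log2 fold change over both ages was 1.81 ± 0.34 (adjusted p = 0.0379). With same-numbered libraries of an age as pairs, which the data bear out in old mice alone, its adjusted p was 0.136, and the call was also lost without any 1 of 10 libraries (adjusted p at most 0.126). Counting these, it was lost in 17 of 24 alternative settings. Among them were the share of genes at 0 as covariate (adjusted p = 0.171) and the omission of the libraries numbered 1 (adjusted p = 0.137).

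No other gene of these lists passed. Among inhibitors, Bambi, a decoy receptor, had the smallest p with age in Ly-HSCs, at 2.83, 2.13 and 4.28 FPKM in old Ly-HSCs and 0, 1.55 and 0 FPKM in young Ly-HSCs (log2 fold change 1.54 ± 0.54, adjusted p = 0.246). In My-HSCs it was Pmepa1, an inhibitor induced by TGF-beta, at 0.718, 0.839 and 1.44 FPKM in old My-HSCs and 2.71, 5.98 and 3.85 FPKM in young My-HSCs (log2 fold change -1.34 ± 0.49, adjusted p = 0.528). Among Smads, Smad4, the common partner of the receptor-activated Smads, stood at 15.0, 24.7 and 17.7 FPKM in old Ly-HSCs and 33.5, 31.7 and 39.9 FPKM in young Ly-HSCs, without overlap (log2 fold change -0.86 ± 0.25, adjusted p = 0.174). Map3k7, the kinase TAK1, was listed with the Smads though not one of them. It had a log2 fold change of -0.67 ± 0.33 with age in My-HSCs (adjusted p = 0.725). Among ligands, Bmp4 was listed at 5.24, 3.81 and 0.306 FPKM in old Ly-HSCs and at 0 in all 3 young Ly-HSC libraries (adjusted p = 0.414). Gdf15, a stress-induced ligand, stood at 4.06, 2.29 and 0.237 FPKM in old My-HSCs and 0, 0 and 0.696 FPKM in young My-HSCs (adjusted p = 0.678).

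Among other receptors, Acvr1b stood at 8.69, 22.2 and 23.7 FPKM in old Ly-HSCs and 51.0, 18.6 and 33.4 FPKM in young Ly-HSCs (log2 fold change -0.88 ± 0.42, adjusted p = 0.389). Acvr2b, an activin type II receptor, stood at -0.84 ± 0.60 in My-HSCs (adjusted p = 0.901) and -0.91 ± 0.60 in Ly-HSCs (adjusted p = 0.527) on the log2 scale. Acvr1 stood at -0.45 ± 0.74 in My-HSCs (adjusted p = 0.977). The co-receptor endoglin, Eng, was abundant at 63.0 to 110 FPKM over the 12 libraries, at -0.14 ± 0.21 with age in My-HSCs (adjusted p = 0.972). Rgmb, a BMP co-receptor, stood at 0.99 ± 0.79 in Ly-HSCs (adjusted p = 0.607). Nrros, which tethers latent TGF-beta1 on myeloid cells, stood at -0.47 ± 0.37 in My-HSCs (adjusted p = 0.918).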

How the data were processed

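The labels' protocols give sorted HSCs, Direct-Zol RNA extraction, a KAPA stranded mRNA-seq kit and paired-end HiSeq3000 sequencing. The authors deposited 1 table of FPKM values, 1 column per library, already scaled for length and library size. Tools named in the submitters' processing notes, with no roles, are STAR, DESeq2 and bcl2fastq 2.17, and the build is GRCm38 (mm10); for annotation, counter and gene filter, none is given in the sources used here. Depth is unknown, so no counting interval is given, and a value of 0 is reported as listed.

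Values were analysed as log2(FPKM + 1), which understates changes of low genes, for 10900 genes at 1 FPKM or more in at least 3 libraries. limma 3.58.1 in R 4.3.3 fitted group means over all 12 libraries with a variance trend (8 residual and 5.11 prior degrees of freedom), two-sided, with Benjamini-Hochberg adjustment per comparison. The fit was tested on simulated data. The members, lists and tests were chosen with earlier results of these data known. Of the other pathway genes, those called anywhere and the one with the smallest p per role list in each age effect are named, and the 5 genes most correlated with each of Bmpr1a, Inhba and Tgfb3, of which 1 is not reported here. Same-numbered libraries deviated together between old My-HSCs and old Ly-HSCs only (r = 0.26, 0.23 and 0.21), so the numbers pair those groups by the data and no others. Gene positions come from GENCODE on GRCm38, and promoters from RefSeq on GRCm38.p6, where 7 of the 10 genes matched. Kit, a sort antigen, was not analysed here. Alternatives were pseudocounts of 0.1 and 0.5, other filters, 3 other scalings, group weights, a covariate, replicate blocks and omitted libraries.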

Additional observations from a re-analysis of the deposited data

Results flagged for a closer look

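Inhba was singled out because its age effect ran in opposite directions in the subsets: all 3 old My-HSC libraries lay below all 3 young ones, and all 3 old Ly-HSC libraries lay above all 3 young ones. The interaction (My-HSCs minus Ly-HSCs in the change with age) was -1.94 on the log2(FPKM + 1) scale (limma adjusted p = 0.864), and it stayed negative under all 24 alternatives run, from -4.07 to -1.10. With each library left out in turn it lay between -2.43 and -1.43.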

How the results depend on the processing

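Of the 10 genes, 1 was called with age in Ly-HSCs, and 0 with quantile normalization, 1 weight per group, the share of genes at 0 as covariate, a fit of the compared groups only, or without the 4 libraries numbered 1 (0 to 1 with each library left out). In My-HSCs 2 were called, 1 at a mean FPKM of at least 1, with quantile normalization or with the compared groups only, and 0 with a pseudocount of 0.1, as TPM, with the covariate, with the replicate block or without the libraries numbered 1 (0 to 2 with each library left out). Over both subsets the count of 1 became 2 without a filter and 0 with the covariate. Between subsets in young mice the count of 1 became 0 without a filter, with quantile normalization, group weights, the covariate, the compared groups only or the replicate block within age, added after seeing the data (0 to 1 with each library left out). Over both ages it was 1 in every setting, and 0 in old mice and for the interaction. With the replicate block, whose numbers pair no old with young libraries, the adjusted p with age in My-HSCs was 0.053 for Bmpr1a and 0.0583 for Tgfb3, and with the block within age that of Inhba in young mice was 0.0579. The blocks changed no other call of the 10 genes.

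Over all genes the calls with age in Ly-HSCs numbered 38, and 24 with median-of-ratios scaling, 14 with quantile normalization, 9 with group weights, 0 with the covariate, 15 with the replicate block, 0 with the compared groups only, 11 without the libraries numbered 1, and 7 to 223 with each library left out. In My-HSCs they numbered 23, and 1 with a pseudocount of 0.1, as TPM or with the covariate, 56 without a filter, 71 with group weights, 9 with the block, 36 with the compared groups, 4 without the libraries numbered 1 and 0 to 36 with each left out. Over both subsets there were 92, and 9 with the covariate, 20 with same-numbered libraries of an age averaged, also added after seeing the data, 39 without the libraries numbered 1 and 42 to 197 with each left out. Between subsets in old mice there were 3, and 1 with a pseudocount of 0.1, the covariate or the block, 29 without a filter, 8 with quantile normalization, 69 with group weights, 12 with the compared groups, 0 without the libraries numbered 1 or with the block within age, and 0 to 6 with each left out. In young mice there were 13, and 22 and 7 with pseudocounts of 0.1 and 0.5, 2 without a filter, 0 with group weights, the compared groups or the block within age, 1 with the covariate, 4 with the block, 32 without the libraries numbered 1 and 0 to 299 with each left out. Over both ages there were 45, and 69 without a filter, 16 with the covariate, 17 with the block within age and 14 to 111 with each left out. The interaction had 0, and 6 without a filter.

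Signs that turned belonged to differences that had not passed. With age, Tgfb3 in Ly-HSCs became -0.777 with quantile normalization, -0.335 with the covariate and -0.105 to 0.391 with each library left out. Smad7 in Ly-HSCs became -0.0651 without the libraries numbered 1, Rgmb -0.665 with the covariate, and in My-HSCs Eng 0.0155 and Acvr1 0.710 without the libraries numbered 1, with Acvr1 from -0.933 to 0.190 with each left out. Over both subsets Tgfbr1 became -0.0434 with quantile normalization, -0.627 with the covariate and -0.0315 without the libraries numbered 1, Tgfbr3 0.0132 without those libraries, and Bmpr2 0.0521 with the covariate. With each library left out Tgfbr1 ranged from -0.0356 to 0.279, Tgfb1 from -0.223 to 0.0336, Tgfbr2 from -0.368 to 0.131 and Smad3 from -0.406 to 0.162. Between subsets over both ages Bmpr1a became -0.181 with quantile normalization, and its interaction 0.668, with 0.0688 without the libraries numbered 1 and -0.309 to 0.131 with each left out. The cause of these changes was not tested, and the depth of each library remains unknown.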
